A study of Mus musculus with 28 samples.

Results

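The 10 immediate early transcription factors examined were *Fos*, *Fosb*, *Fosl2*, *Jun*, *Junb*, *Jund*, *Egr1*, *Atf3*, *Klf6* and *Ier2*. They were chosen by name, with earlier results of these data known. All 10 symbols matched 1 gene identifier each, among 26790 genes that could be tested in the bulk libraries. Immediate early genes are transcribed within minutes of a stimulus, because the kinases and DNA-bound factors that switch them on are already in the cell. FOS and JUN family proteins pair to form AP-1, EGR1 and KLF6 are zinc finger proteins, ATF3 is a stress-induced partner of JUN proteins, and IER2 is a small nuclear protein. In ovaries these genes are known for responses to gonadotropins and growth factors, and in any tissue for responses to wounding, stretch and handling.

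Ovaries came from wild-type C57BL/6J (WT) females and from females homozygous for the Chek2tm1b(EUCOMM)Hmgu allele (*Chek2*-/-, KO), which lack the checkpoint kinase CHEK2 in every tissue. Females of 7 to 9 days received 0.5 Gy of whole-body gamma radiation (IR) or a sham treatment (nonIR), and ovaries were collected 6 h later. Bulk RNA sequencing covered 6 libraries in each of the 4 groups, 24 in all, each from the pair of ovaries of 1 female. Single-cell sequencing covered 1 library per condition, 4 in all, each from dissociated ovaries of 4 pooled females of 7 days.

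Bulk libraries held 17825167 to 32605747 counts. WT libraries spread over that whole range and KO libraries lay between 25601113 and 28610846. *Chek2* itself was at 18.5 to 24.6 TMM-scaled CPM (counts scaled to library size) in WT and at 2.88 to 4.53 CPM in KO libraries, so all 24 libraries matched their genotype label. *Nnt*, a mitochondrial gene that is partly deleted in C57BL/6J mice, was at 26.6 to 36.4 CPM in WT and at 54.7 to 78.3 CPM in KO libraries. The loss of CHEK2 and the genetic background of the KO line therefore cannot be told apart in any KO to WT comparison, and neither can any difference in when or how the 2 genotypes were handled.

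Promoter sequence was matched for 8 of the 10 members, all but *Egr1* and *Ier2* (RefSeq, GRCm38.p6). A few are shown, the 150 bases before the annotated transcription start, 5′ to 3′ on the strand of the gene, because *Fos*, *Junb*, *Atf3* and *Klf6* were called between genotypes and *Jun*, a usual partner, was not. Capitals mark TGACG, the core of a cAMP response element, and TGACATCA, the AP-1 variant of the *Jun* promoter, on either strand. Positions count back from -1, the base before the start.

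Fos: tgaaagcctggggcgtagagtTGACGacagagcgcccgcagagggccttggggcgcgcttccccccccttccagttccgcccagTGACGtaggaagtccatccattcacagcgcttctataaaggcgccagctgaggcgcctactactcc
Junb: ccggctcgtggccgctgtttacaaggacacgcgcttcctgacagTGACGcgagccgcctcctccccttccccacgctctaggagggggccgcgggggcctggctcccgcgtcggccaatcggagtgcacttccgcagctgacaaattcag
Atf3: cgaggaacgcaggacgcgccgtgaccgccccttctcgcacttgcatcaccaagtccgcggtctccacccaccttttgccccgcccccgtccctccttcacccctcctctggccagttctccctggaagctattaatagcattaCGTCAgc
Klf6: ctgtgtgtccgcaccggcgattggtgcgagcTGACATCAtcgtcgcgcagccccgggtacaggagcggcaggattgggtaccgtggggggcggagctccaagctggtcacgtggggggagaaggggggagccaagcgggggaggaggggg
Jun: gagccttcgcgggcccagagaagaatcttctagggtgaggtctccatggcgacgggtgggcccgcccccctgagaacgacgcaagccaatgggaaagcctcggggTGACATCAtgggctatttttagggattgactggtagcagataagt

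These stretches lie at chr12:85473740-85473889 on the plus strand (*Fos*), chr8:84978749-84978898 on the minus strand (*Junb*), chr1:191183334-191183483 on the minus strand (*Atf3*), chr13:5861339-5861488 on the plus strand (*Klf6*) and chr4:95052223-95052372 on the minus strand (*Jun*). TGACG occurred in the 250 upstream bases of 4 of the 8 members, *Fos*, *Fosb*, *Junb* and *Atf3*, and in 17.8% of 32851 promoters of the same length. *Fos* held it at -129 and at -66. TGACATCA was searched after it had been seen in the *Jun* sequence, and it occurred in *Jun* and *Klf6* and in 2.93% of all promoters. The full element TGACGTCA (1.55% of promoters, containing TGACG), the AP-1 site TGANTCA (6.75%) and the CArG box bound by serum response factor (1.47%) did not match within these 250 bases of any of the 8. Bases farther upstream were not searched, and *Egr1* and *Ier2* were not searched at all. A match is a string of letters and not a measured binding site.

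The first comparison asked which genes differed between genotypes without irradiation. Of the 10 members, 6 were called higher in KO than in WT nonIR ovaries (adjusted p up to 0.05) and none lower, where 3.12% of all tested genes were called higher and 5.34% were called in either direction. These shares are descriptions, since the members were not chosen blind to these data. The 6 were *Klf6*, *Atf3*, *Egr1*, *Ier2*, *Junb* and *Fos*. The median log2 fold change was 0.77 over the 10 members and 0.01 over all genes. All p-values for bulk libraries are from the edgeR quasi-likelihood test on the whole table with Benjamini-Hochberg adjustment.

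*Fos* encodes the inducible FOS subunit of AP-1. It was at a lowest, median and highest level of 8.47, 20.7 and 36.9 CPM in the 6 WT nonIR libraries and of 29.0, 52.1 and 91.4 CPM in the 6 KO nonIR libraries. The WT libraries fell into 3 low ones, up to 11.7 CPM, and 3 from 29.7 CPM upwards, and only the lowest KO library reached down into the WT range. The fold change was 2.61 (log2 1.38 ± 0.34 SE, adjusted p = 0.0208). This call rested on single libraries: the adjusted p was 0.0532 without WT nonIR replicate 3, 0.0558 without WT nonIR replicate 4, 0.0519 without KO nonIR replicate 2, and 0.055 when only these 2 groups were fitted.

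*Egr1*, a zinc finger activator downstream of growth factor signalling, was at 81.9, 118 and 158 CPM in WT nonIR and at 164, 241 and 395 CPM in KO nonIR libraries. Every KO library lay above every WT library. The fold change was 2.24 (log2 1.16 ± 0.22 SE, adjusted p = 0.00409).

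*Atf3*, a stress-induced repressor and activator of the CREB family, was at 2.24, 4.59 and 6.51 CPM in WT nonIR and at 7.29, 9.82 and 12.5 CPM in KO nonIR libraries. The groups again did not overlap although the level was low. Its fold change was 2.22 (log2 1.15 ± 0.21 SE, adjusted p = 0.00371).

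*Junb*, the JUN family subunit that often restrains JUN, was at 24.3, 36.1 and 47.5 CPM in WT nonIR and at 53.04, 64.5 and 111 CPM in KO nonIR libraries. The highest value was KO nonIR replicate 2, and the groups did not overlap. The fold change was 1.95 (log2 0.96 ± 0.20 SE, adjusted p = 0.00735).

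*Klf6* had the smallest adjusted p of the 10. It was at 70.7, 84.0 and 88.3 CPM in WT nonIR and at 103, 136 and 145 CPM in KO nonIR libraries, with no overlap. The fold change was 1.59 (log2 0.67 ± 0.10 SE, adjusted p = 0.000258). *Ier2*, whose product enters the nucleus and affects transcription of other early genes, was at 34.7, 37.7 and 44.2 CPM in WT nonIR and at 47.6, 55.6 and 66.8 CPM in KO nonIR libraries. It did not overlap either, and rose 1.45-fold (log2 0.54 ± 0.10 SE, adjusted p = 0.00409).

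Groups that did not overlap, with KO above WT, were thus found for 5 of the 10 members, against 1.68% of all tested genes. *Fos*, *Egr1* and *Atf3* were the 3 members called with at least a 2-fold change, against 0.788% of all genes in either direction.

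**Figure D1:**
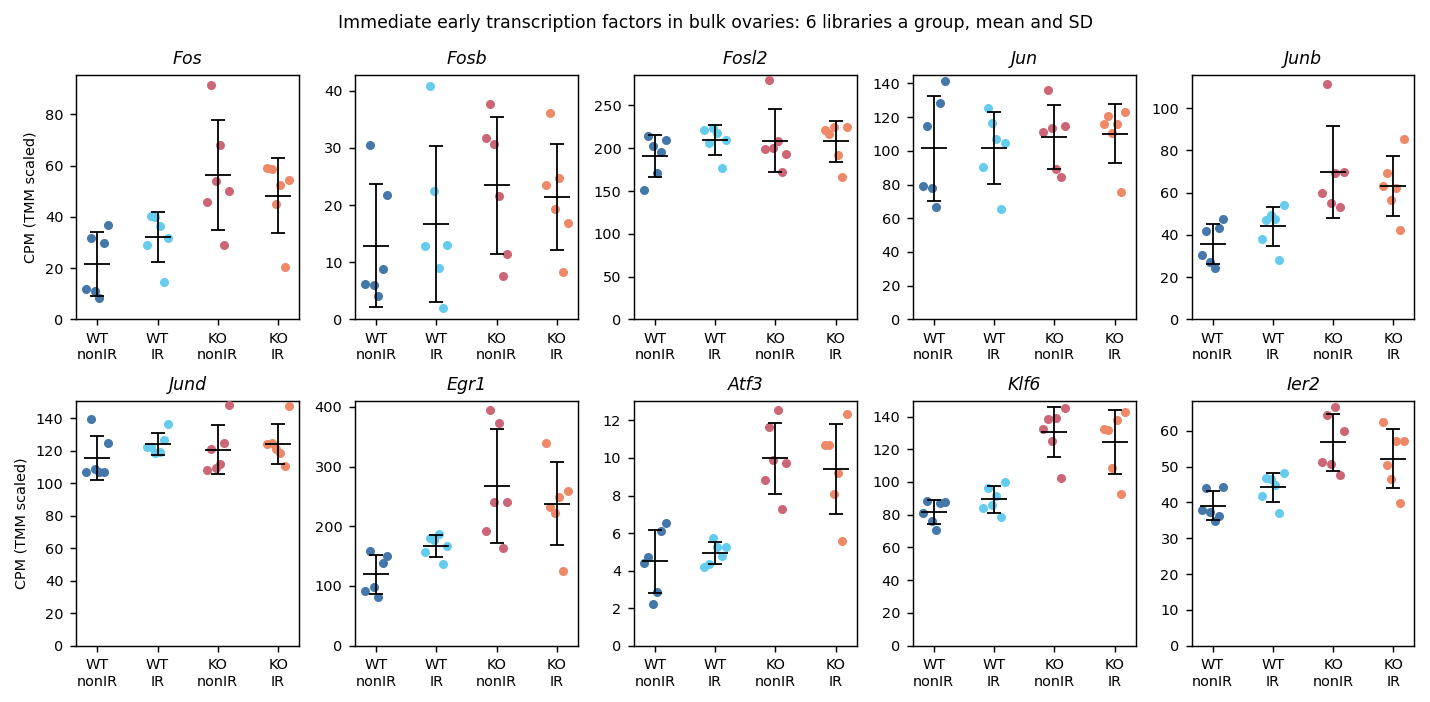
TMM-scaled CPM of the 10 members in every bulk library, 6 points a group, with the mean (bar) and SD (whiskers), each panel starting at 0. In *Junb*, *Egr1*, *Atf3*, *Klf6* and *Ier2* all KO nonIR points lie above all WT nonIR points, while *Jun*, *Jund* and *Fosl2* show 4 overlapping groups.

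The other 4 members did not pass the test. *Fosb*, a second inducible FOS protein, was at 4.04, 7.51 and 30.6 CPM in WT nonIR and at 7.65, 26.1 and 37.8 CPM in KO nonIR libraries. The groups overlapped over most of their range, and the log2 fold change was 0.87 ± 0.54 SE (adjusted p = 0.374), which turned to -0.13 with the heat shock level in the fit. *Jun*, the main partner of FOS, was at 66.5, 97.0 and 141 CPM in WT nonIR and at 84.3, 112 and 136 CPM in KO nonIR libraries, or 0.09 ± 0.17 SE on the log2 scale (adjusted p = 0.826). *Fosl2*, a FOS relative with slower kinetics, was 0.13 ± 0.10 SE higher on the log2 scale (adjusted p = 0.492). *Jund*, the JUN protein present in resting cells, was 0.06 ± 0.08 SE higher on the same scale (adjusted p = 0.714).

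Other genes of the same programme were read from lists, which were also chosen with earlier results of these data known. Of 37 further immediate early genes, 15 were called higher in KO nonIR ovaries and none lower, with a median log2 fold change of 0.48. The smallest adjusted p-values were those of *Egr2* (log2 1.24 ± 0.19 SE, adjusted p = 0.000701), *Egr4* (2.99 ± 0.50, adjusted p = 0.00159), *Nr4a2* (1.08 ± 0.18, adjusted p = 0.0018), *Phlda1* (0.50 ± 0.11, adjusted p = 0.00896) and *Arc* (1.26 ± 0.27, adjusted p = 0.00944). Of 21 genes that damp the programme, such as MAP kinase phosphatases and RNA decay factors, 8 were called higher and none lower. *Dusp6*, a phosphatase of ERK, was up by 0.73 ± 0.13 SE on the log2 scale (adjusted p = 0.00353). *Ppp1r15a*, which lets translation resume after stress, had one of 0.84 ± 0.16 SE (adjusted p = 0.0043), and *Zfp36*, which destabilizes mRNAs, one of 0.78 ± 0.16 SE (adjusted p = 0.00632). *Gadd45b* (0.69 ± 0.14) and *Gadd45g* (0.53 ± 0.13) completed the 5 with the smallest adjusted p in this list.

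Of 21 genes upstream, namely the kinases and the factors that occupy early gene promoters, 2 were called higher and 2 lower, all by small amounts. *Atf1* (log2 0.22 ± 0.04 SE, adjusted p = 0.00405) and *Creb1* (0.22 ± 0.06, adjusted p = 0.0274), which bind cAMP response elements, rose. *Mrtfa* (log2 fold change -0.30 ± 0.06 SE, adjusted p = 0.00931), a cofactor of serum response factor, and *Mapk3* (-0.25 ± 0.06, adjusted p = 0.0147), which encodes ERK1, fell.

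Of 14 heat shock genes, 2 were called higher in KO nonIR ovaries, *Dnajb4* (log2 0.35 ± 0.07 SE, adjusted p = 0.0085) and *Hspd1* (0.21 ± 0.05, adjusted p = 0.0113). Stress-inducible *Hspa1a* stood at 0.73 ± 0.54 SE on that scale (adjusted p = 0.477), with overlapping groups. With the mean heat shock level of each library added to the fit, an alternative chosen after the data were seen, all 6 members were still called. Their log2 fold changes were 0.79 for *Fos*, 0.80 for *Egr1*, 0.86 for *Atf3*, 0.61 for *Junb*, 0.50 for *Klf6* and 0.38 for *Ier2*. The count over all genes fell from 1430 to 209. That level, centred over all libraries, itself differed by genotype, at a mean of -0.09 in WT nonIR and 0.101 in KO nonIR on the log2 scale. Within groups, the 14 genes had a median Pearson's r of 0.003 with the mean of the members, and 4 exceeded 0.5. The part of handling in the 6 calls was thus not tested by this fit. Among markers of other cell types, the 8 erythroid genes had a median log2 fold change of 2.71 that came with 1 library, KO nonIR replicate 5, at a summed 10536 CPM against 199 to 830 CPM in the other 5 KO nonIR and 222 to 926 CPM in the WT nonIR libraries. Without that library the same 6 members were called. KO nonIR replicate 6 also stood apart, at a summed 1206 CPM of oocyte markers against 2227 to 2371 CPM in the other 5 and 806 CPM of pericyte markers against 421 to 546 CPM, and the same 6 members were called without it. Granulosa markers summed to 1350 to 1956 CPM in KO nonIR and 1877 to 2375 CPM in WT nonIR libraries, and epithelial markers to 162 to 485 CPM and 244 to 346 CPM, with 4 of the 6 KO nonIR libraries below every WT nonIR library. The 7 genes of perivascular smooth muscle had a median of -0.68, none of them called, while 3 of 9 fibroblast markers were called lower with a median of -0.13. The part of these other cell types in the members' values was not tested. In bulk ovaries, a change in the number of cells of a type and a change in RNA per cell cannot be told apart.

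**Figure D2:**
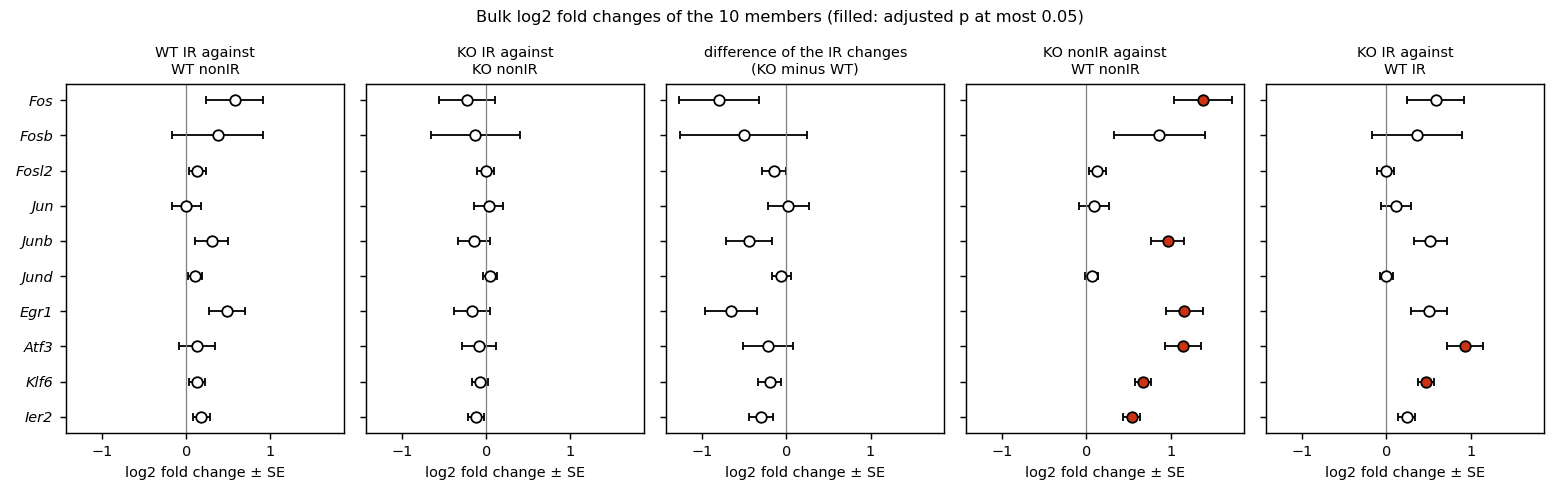
Log2 fold change of the 10 members in each of the 5 bulk comparisons, with its standard error, filled where the adjusted p was at most 0.05. Filled points appear in KO nonIR against WT nonIR (6 members) and in KO IR against WT IR (2 members) and in no comparison that involves irradiation within a genotype.

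The second comparison asked what irradiation did in WT ovaries. None of the 10 members was called by edgeR in WT IR against WT nonIR ovaries, where 2.41% of all genes were called. DESeq2 and limma-voom called none of them either, and at an unadjusted p under 0.05 there was 1, *Egr1*, where 11.4% of all genes passed. *Egr1* was at 137, 172 and 188 CPM in WT IR libraries, and the groups overlapped. Its log2 fold change was 0.49 ± 0.22 SE (unadjusted p = 0.0338, adjusted p = 0.369). *Fos* was at 14.6, 34.2 and 40.4 CPM in WT IR libraries, and the lowest was replicate 4, with the groups overlapping over most of their range. Its log2 fold change was 0.58 ± 0.34 SE (adjusted p = 0.59).

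*Junb* followed with 0.30 ± 0.20 SE (adjusted p = 0.647) and *Jun* was at 0.00 ± 0.17 SE (adjusted p = 1). The remaining 6 members lay between 0.11 and 0.38 on the log2 scale, with adjusted p-values of 0.561 to 0.921. The median was 0.16 over the members and -0.00 over all genes. These ovaries did respond: all 6 p53 target genes used as a reference were called higher, with a median log2 fold change of 1.72. This list too was chosen with earlier results of these data known, so its count is no independent test. Beside the members, *Btg2*, an antiproliferative immediate early gene that p53 also induces, was the only one of 37 called, at 1.02 ± 0.14 SE (adjusted p = 4.01e-05). *Srf*, which encodes serum response factor, was called higher at 0.27 ± 0.04 SE (adjusted p = 0.000206).

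In KO ovaries irradiation was followed by no call among the members by edgeR, DESeq2 or limma-voom, where 0.0112% of all genes were called, and by none at an unadjusted p under 0.05, where 4.4% passed. *Fos* was at 20.3, 53.3 and 59.1 CPM in KO IR libraries, with replicate 5 far below the others, and its log2 fold change was -0.22 ± 0.33 SE (adjusted p = 1). *Egr1* was at 125, 240 and 339 CPM and at -0.17 ± 0.21 SE. The 10 log2 fold changes lay between -0.22 and 0.04, and their median was -0.10. Of the 6 p53 target genes, 2 were called higher in KO, *Ccng1* and *Eda2r*, and the median over the 6 was 0.40. Their summed level was 210 to 226 CPM in KO nonIR and 246 to 280 CPM in KO IR libraries.

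The difference between the 2 irradiation responses was tested directly, as KO minus WT, and none of the members was called, against 1.03% of all genes. By DESeq2 and limma-voom it was also none. At an unadjusted p under 0.05, which 9.14% of all genes passed, there were 2, *Egr1* (-0.66 ± 0.30 SE, unadjusted p = 0.0413, adjusted p = 0.512) and *Ier2* (-0.30 ± 0.14 SE, unadjusted p = 0.0462, adjusted p = 0.535). *Btg2* (-1.13 ± 0.20 SE, adjusted p = 0.00224) and *Srf* (-0.25 ± 0.06 SE, adjusted p = 0.0326) were called in this test.

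Between irradiated ovaries of the 2 genotypes, *Klf6* and *Atf3* were called higher in KO, 2 of 10 members where 5.52% of all genes were called higher and 9.84% either way. *Klf6* was at 78.4, 88.5 and 100 CPM in WT IR and at 92.4, 132 and 143 CPM in KO IR libraries, with an overlap that came from the lowest KO library. Its log2 fold change was 0.48 ± 0.10 SE (adjusted p = 0.00178). *Atf3* was at 4.19, 5.01 and 5.72 CPM in WT IR and at 5.56, 9.93 and 12.4 CPM in KO IR libraries, and its log2 fold change was 0.93 ± 0.21 SE (adjusted p = 0.00493). Marker sums moved with this comparison, at 149 to 411 CPM in WT IR and 98.9 to 178 CPM in KO IR for perivascular smooth muscle (4 of 7 called lower) and at 4602 to 5546 and 3499 to 4824 CPM for fibroblasts (3 of 9 called lower). Of the 10 oocyte markers, 6 were called higher in KO IR, with a median log2 fold change of 0.38. The part of these cell types in the members' values was not tested. Some libraries stood apart, KO IR replicate 2 at 7084 CPM of erythroid and 1621 CPM of neutrophil markers and WT IR replicate 3 at 1775 CPM of neutrophil markers. KO IR replicate 6 held 1376 CPM of oocyte markers against 2134 to 2397 CPM in the other KO IR libraries and 1334 CPM of granulosa markers against 1636 to 2043 CPM, and WT IR replicate 4 held 541 CPM of epithelial markers against 163 to 341 CPM in the other WT IR libraries. *Klf6* and *Atf3* were still called with each of these 4 libraries left out in turn.

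*Junb* (0.52 ± 0.20 SE, adjusted p = 0.0966), *Egr1* (0.50 ± 0.22 SE, adjusted p = 0.15) and *Ier2* (0.24 ± 0.10 SE, adjusted p = 0.144) did not pass. Without KO IR replicate 5, the library lowest in these genes, 4 members were called, *Egr1* (adjusted p = 0.048) and *Ier2* (adjusted p = 0.0461) having joined. Leaving out the lowest KO library raises a KO to WT difference by construction, so these added calls are no support. With any other library of these groups left out the count was 2. The share of all genes is not given for these fits. Of the 37 other immediate early genes 7 were called higher and 1 lower, the last being *Btg2* (-0.54 ± 0.14 SE, adjusted p = 0.0142). Among the 21 damping genes 4 were higher, led by *Ppp1r15a* (0.70 ± 0.16 SE, adjusted p = 0.00543) and *Gadd45b* (0.61 ± 0.14 SE, adjusted p = 0.00582).

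The members rose and fell together from library to library within a group. On log2 CPM minus the group mean, over the 24 libraries, Pearson's r was 0.92 for *Fos* with *Jun*, 0.89 for *Fos* with *Junb*, 0.89 for *Fos* with *Egr1* and 0.87 for *Egr1* with *Ier2*. *Jund* stood apart, with r of 0.11 to 0.46. These are descriptions, since all pairs share the same libraries, RNA and collection.

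*Jun* thus moved with *Fos* between females although it was not called between groups. The 10 genes most like the mean of the members, among 15946 genes of at least 1 CPM on average, were *Nr4a1* (r = 0.876), *Zfp36* (0.861), *Ifrd1* (0.852), *Ccn1* (0.838), *Cebpd* (0.831), *Hspa1b* (0.817), *Hspa1a* (0.816), *Cdkn1a* (0.813), *Maff* (0.804) and *Cebpb* (0.804). Over all genes ranked, r exceeded 0.5 for 3.31%. It did so for 62.9% of the other immediate early genes, 66.7% of the damping genes, 28.6% of the heat shock genes and 4.76% of the upstream genes. The libraries farthest below their own group's mean, each member's log2 deviations scaled by its within-group SD and averaged over the members, were KO IR replicate 5, WT nonIR replicate 4, WT IR replicate 4 and KO nonIR replicate 5.

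**Figure D3:**
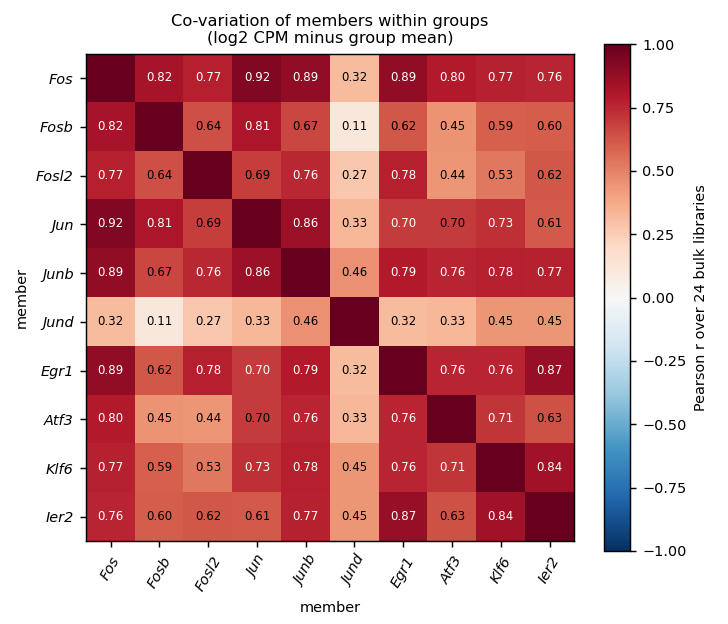
Pearson's r between members over the 24 bulk libraries, on log2 CPM minus the mean of the library's group. All pairs are above 0, with *Fos* and *Jun* highest at 0.92 and the *Jund* row lowest, down to 0.11 with *Fosb*.

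Single-cell libraries placed the members in cell classes. After filters and removal of doublets, 9277 WT nonIR, 9779 WT IR, 8697 KO nonIR and 8771 KO IR cells were used, and any 2 libraries shared 30 to 73 barcodes. The members, other early genes and heat shock genes were kept out of the variable genes used for clustering. There is 1 library per condition, so values have no replicate error and no test. Levels are UMI CPM, the UMIs (molecules counted) of a gene scaled to the total of its class and library as CPM is, intervals are exact Poisson limits at 95% that cover counting error only, and classes carry the names of their markers. Dissociation by enzymes at 37 °C preceded capture here and not in the bulk libraries.

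Among the 9 classes plotted, every member was lowest in oocyte-like cells by the median over the 4 libraries. *Fos* was at 116 to 270 UMI CPM in oocytes (581 cells), at 249 to 599 in surface epithelium, at 636 to 866 in granulosa cells, at 846 to 2290 in fibroblasts, at 1493 to 2628 in perivascular smooth muscle and at 1731 to 2888 in pericytes. Oocytes stood below granulosa cells, fibroblasts, smooth muscle and pericytes in every library but overlapped the epithelium, while the ranges of fibroblasts, smooth muscle and pericytes overlapped. *Jun* (1581 to 2371), *Jund* (1252 to 2168) and *Fosb* (760 to 1367) had their highest medians in perivascular smooth muscle.

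*Junb* was highest in pericytes, at 2056 to 2599, which did not overlap its range in any other plotted class. *Klf6* was highest in macrophages (23 to 54 cells a library), at 385 to 507, against 24.8 to 63.7 in oocytes. *Atf3* had its highest median there too, at 87.3 to 260, which overlapped pericytes (55.8 to 124). *Fosl2* was highest in endothelial cells (107 to 180) and pericytes (106 to 184), which overlapped. *Egr1* and *Ier2* had their highest medians in cluster 6, 5665 cells led by *Clec3b* and *Fmo2*, at 1314 to 1604 and 882 to 1238. Both ranges overlapped those of fibroblasts and smooth muscle, which for *Egr1* were 818 to 1375 and 1049 to 1380. Cluster 6 was rich in the 9 fibroblast markers, which summed to 14847 to 15214 UMI CPM against 9350 to 11344 in the fibroblast class. It stayed unnamed under the naming limits, its 10 leading genes holding a smooth muscle marker, *Tagln*, and no fibroblast marker. At the finer resolution a cluster of 4887 cells with the same leading pair met the fibroblast list.

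**Figure D4:**
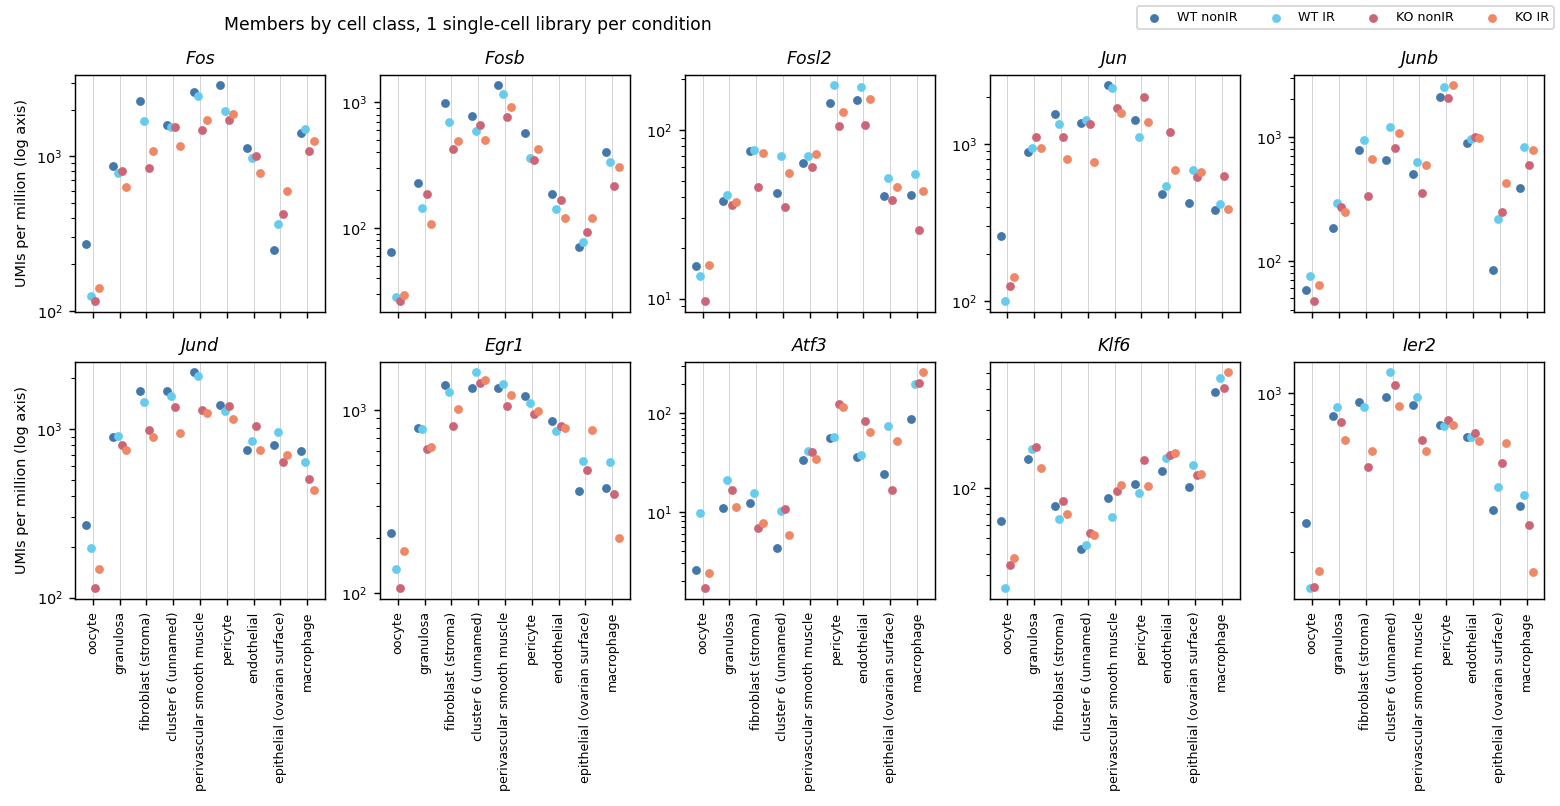
UMI CPM of each member, on a log axis, in 9 cell classes and 4 libraries (1 point per library). Oocytes give the lowest points in nearly every panel, *Junb* peaks in pericytes at 2056 to 2599, and *Klf6* peaks in macrophages at 385 to 507.

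Within granulosa cells *Fos*, *Ier2*, *Klf6* and *Atf3* differed between cluster 10 and cluster 9. The levels of the other members and clusters are not given here. Cluster 10, which had little *Amh* (78.9 UMI CPM) and little of the division gene *Top2a* (9.8), was at 1138 to 1717 for *Fos*, 1474 to 1702 for *Ier2*, 321 to 380 for *Klf6* and 31.9 to 45.7 for *Atf3*. Cluster 9, rich in *Amh* (588.6), was at 425 to 587 for *Fos*, 461 to 638 for *Ier2*, 58.4 to 78.1 for *Klf6* and 2.42 to 5.61 for *Atf3*. The 4 libraries of the first cluster lay above the 4 of the second for each of these genes.

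In granulosa cells of the WT libraries, 2 of 10 members were past 1.5-fold higher after irradiation and 1 lower, against 3.28% and 1.28% of genes with at least 100 UMIs. *Junb* went from 184 to 290 UMI CPM (ratio 1.58, 1.55 to 1.62) and *Atf3* from 10.98 to 21.1 (ratio 1.92, 1.76 to 2.09). *Fosb* had a ratio of 0.63. With the members let into the variable genes for clustering, the count past 1.5-fold higher was 0. In granulosa cells of the KO libraries, under the main clustering, none was past 1.5-fold higher after irradiation and 1 lower, against 1.06% and 1.78% of genes. The class held 4 clusters in different numbers: of 2934 WT nonIR and 3561 WT IR cells, 613 and 668 were in cluster 0, 1225 and 1172 in cluster 9, 764 and 1332 in cluster 10, and 332 and 389 in cluster 13. *Atf3* had a ratio of 3.17 (2.23 to 4.64; 42 and 124 UMIs) within the dividing cluster 0, 1.395 (1.26 to 1.55) in cluster 10, 1.18 (0.97 to 1.43) in cluster 13 and 1.00 (0.69 to 1.43) in cluster 9. *Junb* had one of 1.52 in cluster 10, 1.28 in cluster 13, 1.20 in cluster 9 and 0.96 in cluster 0.

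Surface epithelium had 3 of 10 members past 1.5-fold higher after irradiation in WT, against 7.42% of genes. *Atf3* went from 24.3 to 73.6 UMI CPM (ratio 3.01, 2.53 to 3.63), *Junb* from 83.7 to 216 (2.58, 2.34 to 2.85) and *Jun* from 421 to 683 (1.62, 1.55 to 1.70). In KO the count was also 3, against 1.5% of genes, namely *Atf3* (3.07, 2.50 to 3.81), *Junb* (1.71, 1.61 to 1.81) and *Egr1* (1.67, 1.60 to 1.74). *Top2a*, a marker of division, moved with these values, from 58.6 to 168 in WT and from 74.6 to 137 in KO. In WT the 10 granulosa markers in this class went from 1232 to 870 UMI CPM in sum, the 8 epithelial markers from 2451 to 3285 and the 14 heat shock genes from 7397 to 10165. In KO the same sums went from 1217 to 1134, from 2490 to 2461 and from 8313 to 8260. The part of these in the members' ratios was not tested. Finer clusters, where this class held 871 cells in place of 1146, gave 7 and 6 members in place of 3 and 3. Letting the members into the variable genes gave 5 and 6, and a 2-fold limit gave 2 and 1. The shares of all genes above do not apply to these counts.

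In oocytes of the WT libraries, 6 of 10 members were past 1.5-fold lower after irradiation, against 12% of genes. *Fos* went from 270 to 124 UMI CPM (ratio 0.46, 0.44 to 0.49), *Jun* from 260 to 101 (0.39, 0.37 to 0.41), *Klf6* from 63.7 to 24.8 (0.39, 0.35 to 0.44), *Fosb* from 64.7 to 28.1 (0.43, 0.39 to 0.48), *Ier2* from 269 to 139 (0.52, 0.49 to 0.54) and *Egr1* from 213 to 136 (0.64, 0.61 to 0.68). *Atf3* alone was past 1.5-fold higher, where 11.6% of genes were, from 2.56 to 9.80 UMI CPM (131 against 74 UMIs, ratio 3.82, 2.86 to 5.17). *Junb* stayed within 1.5-fold at 1.31.

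Values that moved with this are given beside it. The summed level of the 10 granulosa markers in the oocyte class was 652 UMI CPM in WT nonIR, 309 in WT IR, 285 in KO nonIR and 427 in KO IR, against 4619 to 5665 in granulosa cells. The 9 fibroblast markers summed to 250, 342, 209 and 231 in the same order. Median UMIs per oocyte were 181495, 15869, 159206 and 120516, and 119 of 170 WT IR oocytes held under 50000 UMIs, against 65 of 196 in WT nonIR. In the oocytes of at least 50000 UMIs, 7 members were lower, against 14.4% of genes in that subset, and *Atf3* was again higher (ratio 2.475, 1.76 to 3.48), against 12.3%. In those below, *Fos* (0.48) and *Fosb* (0.34) were past 1.5-fold lower, against 16.4% of genes, while *Jun* (1.79), *Klf6* (1.88) and *Junb* (1.64) were past it higher, against 12.7%. Oocyte stages were not separated in this class. In bulk ovaries 2 of the 10 oocyte markers, *Sohlh1* and *Nobox*, were called lower in WT IR than in WT nonIR. The part of granulosa RNA, of cell depth and of oocyte stage in the ratios was not tested.

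In KO oocytes no member was past 1.5-fold lower after irradiation, where only 0.573% of genes were. *Fosl2* (1.64, 1.32 to 2.06) and *Egr1* (1.59, 1.49 to 1.70) were past it higher, against 5.45% of genes. *Atf3* had 43 and 20 UMIs in these 2 libraries, too few for a ratio. Of the 9 members with at least 100 UMIs, 8 were past 1.5-fold lower in KO nonIR than in WT nonIR oocytes, from *Fosb* at 0.41 to *Fosl2* at 0.62, against 11.1% of genes. *Junb* was at 0.82. The WT nonIR library was thus the highest of the 4 in oocytes for *Fos*, *Jun*, *Fosb*, *Jund*, *Egr1*, *Klf6* and *Ier2*, and it was the highest in the granulosa marker sum as well.

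In the fibroblast class without irradiation, *Fos*, *Junb*, *Egr1*, *Ier2* and *Atf3* were lower in KO, opposite to the bulk ovaries. In this class 8 of 10 members were past 1.5-fold lower in KO than in WT, against 3.2% of genes, and none was higher. The class leaves out cluster 6, rich in the same markers. There none was past 1.5-fold lower, against 0.834% of genes, and *Atf3* was past it higher (2.50), against 1.11%. At the finer resolution, where a cluster like it carried the fibroblast name, the fibroblast count was 5, and its share of all genes is not given. *Fos* was at 2290 UMI CPM in WT nonIR and 846 in KO nonIR (ratio 0.37, 0.37 to 0.37), *Junb* at 784 and 335 (0.43, 0.42 to 0.43), *Egr1* at 1375 and 818 (0.59, 0.59 to 0.60) and *Ier2* at 920 and 474 (0.51, 0.51 to 0.52). *Klf6* was level at 1.07, and *Jun* was at 0.71. After irradiation the KO to WT count in the fibroblast class was 5 lower, against 4.02% of genes. In cluster 6 it was then 3 lower, against 1.5%, and none higher, against 1.36%.

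*Hspa1a* was at 12.9 UMI CPM in WT nonIR, 12.2 in WT IR, 68.7 in KO nonIR and 20.4 in KO IR fibroblasts, so the KO nonIR library was the highest of the 4 in this stress-inducible gene. Its part in the members' ratios was not tested. Between fibroblast clusters the *Fos* ratio was 0.35 to 0.38 in clusters 3, 7 and 14 and 0.63 in cluster 5, and in the unnamed cluster 6 it was 0.96. In granulosa cells the same genotype ratio was 0.93 for *Fos*, 1.47 for *Junb* and 1.52 for *Atf3*, and its clusters went in opposite directions. *Fos* was at 1.28 in cluster 10 and at 0.67 to 0.79 in clusters 0, 9 and 13, and *Junb* at 2.10 in cluster 10, 1.17 in cluster 9, 0.83 in cluster 0 and 0.73 in cluster 13. *Atf3* was at 3.14 in cluster 0, 2.30 in cluster 9, 1.43 in cluster 10 and 0.76 in cluster 13. In surface epithelium the 3 ratios were 1.72, 2.97 and 0.69. The epithelial *Fos* ratio was 0.864 when the members were let into the variable genes. *Junb* and *Atf3* were thus lower in KO in some classes and higher in others.

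In the unnamed cluster 6, 3 of 10 members were past 1.5-fold higher in the WT IR than in the WT nonIR library, against 1.47% of genes. They were *Atf3* (63 and 158 UMIs, ratio 2.36, 1.76 to 3.23), *Junb* (1.83, 1.79 to 1.88) and *Fosl2* (1.68, 1.52 to 1.85). In KO, *Fosl2* was again past it higher (1.585), against 0.538% of genes, while *Jun* (0.57) and *Atf3* (0.55) were past it lower, against 0.519%. In WT fibroblasts, endothelial cells and perivascular smooth muscle no member was past 1.5-fold either way after irradiation, against 1.25% to 1.78% of genes. In WT pericytes 1 was lower, against 1.37%, and none higher. In KO, 2 were higher in fibroblasts (1.48% of genes), 1 lower in endothelial cells (1.04%) and 1 higher in smooth muscle (1.03%). None was past it in KO pericytes.

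Cells of the vessel wall differed by gene between the nonIR genotypes. In perivascular smooth muscle *Fos* (ratio 0.57, 0.55 to 0.59), *Fosb* (0.56) and *Jund* (0.60) were past 1.5-fold lower in KO, against 1.98% of genes. In pericytes *Fos* (0.60) and *Fosb* (0.60) were lower, against 1.79%, and *Atf3* was higher (2.22, 1.72 to 2.91), against 1.4%. In endothelial cells *Atf3* (2.32, 1.89 to 2.87) and *Jun* (2.45, 2.32 to 2.60) were higher, against 2.63%. *Atf3* was thus past 1.5-fold higher in both pericytes and endothelial cells, with *Fos* lower in pericytes and smooth muscle. *Hspa1a* went from 1.80 (7 UMIs) in WT nonIR to 24.8 UMI CPM (77 UMIs) in KO nonIR endothelial cells, from 99.6 to 160 in pericytes, from 78.2 to 162 in smooth muscle, from 14.7 to 71.4 in granulosa cells and from 15.4 to 39.6 in cluster 6. Its part in these ratios was not tested.

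**Figure D5:**
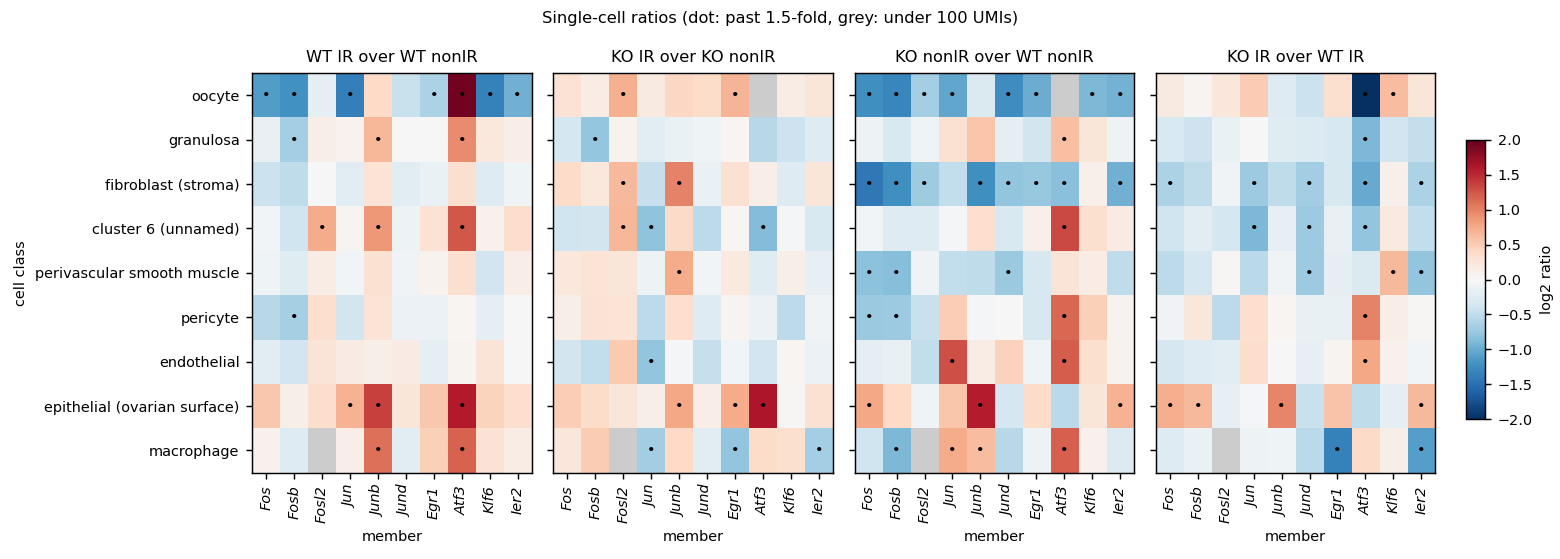
Log2 ratio of each member between 2 single-cell libraries, by cell class, in 4 comparisons, with a dot where the ratio was past 1.5-fold and grey where the 2 libraries held under 100 UMIs. Oocytes, summed over cells of all depths, show 6 lower members after irradiation in WT and none in KO, against 12% and 0.573% of genes. In WT oocytes of under 50000 UMIs, *Fos* and *Fosb* were past 1.5-fold lower, against 16.4% of genes. *Jun*, *Klf6* and *Junb* were past it higher there, against 12.7%. Fibroblasts show 8 lower members in KO nonIR over WT nonIR, against 3.2%.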

How the data were processed

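The authors deposited unscaled estimated counts per gene for the bulk libraries, made with nf-core/rnaseq (the submitters' processing notes name Trim Galore 0.6.5 and Salmon 1.3.0). Their single-cell files, from Cell Ranger and mm10, hold deposited raw counts of UMIs. Of 44674 bulk identifiers, 44118 took their symbol from the reference and another 34 from the symbols in the 10x files.

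Members and gene lists were chosen with earlier results of these data known. Genes named beside the members were at most 5 called genes per list and comparison with the smallest adjusted p, and the 10 most like the members. *Btg2*, *Hspa1a*, *Srf* and *Nnt* were named after their values were seen where this rule did not reach them.

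Bulk counts were rounded. Genes of at least 10 counts over 24 libraries were fitted by edgeR 4.0.16 (R 4.3.3, TMM, quasi-likelihood, 1 coefficient per group). On simulated counts for the WT irradiation comparison (26332 genes) 47 of 67 genes changed by a log2 of 0.5 and 58 of 67 changed by 1 were recovered, with 9 false calls. Changed genes were drawn at random from those of at least 1 CPM, and genes varied independently. The members varied together, with an SE of up to 0.54 (*Fosb*) in that comparison, so these rates need not hold for them. With 6 libraries a group, p-values cover the spread between females. A count of 3 corresponds to 0.0931 to 0.168 CPM, depending on the library.

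Cells of at least 1000 genes, at most 20% mitochondrial and 50% ribosomal UMIs, and not called doublets by Scrublet (4.02% to 5.47% of cells) were clustered with scanpy 1.11.5 (2000 variable genes, 30 components, 15 neighbours, Leiden resolution 0.5). A cluster was named when at least 60% of a marker list, and at least 3 markers, were in 25% of its cells and 2-fold over the cluster median, and no other list led its top genes. These limits were chosen with the clusters in view. For ratios, 0.5 was added to each sum of UMIs over the cells of a class in a library.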

Additional observations from a re-analysis of the deposited data

Results flagged for a closer look

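In 40 tests of a group's extreme value (10 members in 4 groups), 5 were past Dixon's 95% limit, of which chance gives about 1 in 20 tests, and they came from 3 libraries. KO IR replicate 5 was low for *Fos* (20.3 CPM, next 45.0) and *Jun* (75.7 CPM, next 110). KO nonIR replicate 2 was high for *Fosl2* (280 CPM, next 208) and *Junb* (111 CPM, next 69.9). WT IR replicate 4 was low for *Fosl2* (176 CPM, next 206).

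In 2 cases the ratio of IR over nonIR for a member was past 1.5-fold in opposite directions in the 2 genotypes of the single-cell libraries. *Egr1* in oocytes had a ratio of 0.642 in WT and 1.59 in KO. *Atf3* in the unnamed cluster 6 had a ratio of 2.36 in WT and 0.548 in KO. These differences were not tested, since each condition had 1 library.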

How the results depend on the processing

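The 6 calls between nonIR genotypes and the 2 between IR genotypes were unchanged with DESeq2, limma-voom, RLE size factors, no filter, filterByExpr and the heat shock covariate. A minimum fold change of 2 left 3 and 0 members. Leaving out 1 library gave 5 to 6 and 2 to 4 members, and fitting the 2 groups alone gave 5 in the first. Replicate numbers are not known to pair libraries: same-numbered libraries correlated at 0.015 to 0.515 between the WT groups, 0.096 to 0.792 between the KO groups (own number best for 2 and 4 of 6) and -0.247 to 0.415 across genotypes. With a replicate block the IR count was 3, *Junb* (0.52) having joined, with no other call changed. The counts of 0 stayed at 0.

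In single cells, the 2-fold limit gave 4 (oocytes, KO nonIR over WT nonIR), 3 and 1 (fibroblasts, nonIR and IR), 1 (epithelium, KO) and 0 (granulosa). Finer clusters gave 5 in nonIR fibroblasts and 7 and 6 in WT and KO epithelium. Letting the members into the variable genes gave 5 and 6 in epithelium and 0 in granulosa cells, and moved *Fos* in KO over WT nonIR epithelium to 0.864 and *Atf3* in KO over WT IR granulosa cells to 1.09. Of the single-member ratios under alternatives, 351 left the counting interval of the main ratio and 807 did not. The share of all genes is not given for these counts, and the causes were not tested.

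Signs of members that were not called changed as follows, *Fosb* from as far as 0.87 in KO against WT nonIR and -0.51 in the difference. With the heat shock covariate, log2 fold changes were -0.0462 for *Jun* in WT IR against nonIR, 0.0045 (*Fos*), 0.29 (*Fosb*), 0.0425 (*Fosl2*) and 0.0126 (*Atf3*) in KO IR against nonIR, 0.0818 for *Fosb* in the difference, -0.13 (*Fosb*), -0.0111 (*Fosl2*) and -0.22 (*Jun*) in KO against WT nonIR, and -0.0487 (*Fosb*), -0.0361 (*Jun*) and -0.0104 (*Jund*) in KO against WT IR. In limma-voom *Fosl2* was at 0.0011 in KO IR against nonIR and *Jun* at -0.011 in the difference. *Jund* in KO against WT IR was at -0.011 with RLE and with DESeq2, -0.0082 with no filter, -0.0119 with filterByExpr, -0.0127 with the groups alone, -0.0036 with limma-voom and -0.0022 with the replicate block.

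Leaving out 1 library gave these ranges. In WT IR against nonIR they were -0.10 to 0.84 (*Fosb*) and -0.0846 to 0.13 (*Jun*). In KO IR against nonIR they were -0.34 to 0.0565 (*Fosb*), -0.0573 to 0.0915 (*Fosl2*), -0.0344 to 0.12 (*Jun*), -0.26 to 0.0391 (*Junb*), -0.018 to 0.11 (*Jund*), -0.19 to 0.0294 (*Atf3*) and -0.13 to 0.0014 (*Klf6*). In the difference they were -0.10 to 0.11 (*Jun*) and -0.14 to 0.003 (*Jund*). In KO against WT nonIR they were -0.0025 to 0.21 (*Jun*) and -0.0055 to 0.12 (*Jund*), and in KO against WT IR -0.0569 to 0.0436 (*Fosl2*) and -0.0681 to 0.0301 (*Jund*).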
